A study of Tremella fuciformis and Annulohypoxylon stygium and Tremella fuciformis
Annulohypoxylon stygium with 5 samples.

Results

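The hydrophobins of Annulohypoxylon stygium, the ascomycete with which the white jelly fungus Tremella fuciformis is grown, were described across 5 transcriptome libraries. They are the 3 of 42507 assembled sequences (unigenes) whose best hit in the Nr protein database is named a hydrophobin. The table lists them as Unigene10417_All, CL2509.Contig1_All and CL2509.Contig2_All, and they are named here without the suffix. CL2509.Contig1 and CL2509.Contig2 are contigs of 1 assembly cluster, so the 3 unigenes make up 2 clusters. All 3 belonged to the 18667 unigenes assigned to A. stygium, that is, with at least 1 FPKM (fragments mapped per kilobase of unigene, relative to the library's total) in an A. stygium library and at least 10 times the level of either T. fuciformis library.

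All libraries were made from wild type mycelia. One A. stygium library came from a culture grown alone for 1 week, and the other was taken 1 week after interaction with T. fuciformis. The T. fuciformis culture grown alone was 2 weeks old, and its partner library was again taken 1 week after interaction with A. stygium. A further library, called dual, contained both fungi together, also 1 week after interaction. Each condition had 1 library, and the sources used here do not say whether a library pooled several cultures. The total age of the interacting mycelia is not given, so age and contact cannot be told apart. The ratios below therefore describe pairs of libraries, without a spread between replicates and without a test.

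Hydrophobins are small secreted proteins of filamentous fungi with a conserved pattern of cysteines joined by disulfide bonds. They assemble at the border between water and air into a film that is wettable on its inner face and water-repellent on its outer face. They are known for coating aerial hyphae and spores, for lowering the surface tension that a hypha must break to grow into air, and for attaching hyphae to hydrophobic surfaces. Class I members, such as EAS of Neurospora crassa and RodA of Aspergillus nidulans, form very insoluble rodlets, while class II members, known mainly from ascomycetes, form films that dissolve more easily.

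The Nr hit of Unigene10417 was a putative hydrophobin precursor of Rosellinia necatrix, a fungus of the same order as A. stygium, with an e-value of 1.2e-23. Both contigs of CL2509 matched a fungal hydrophobin of Colletotrichum fioriniae, with e-values of 4e-35 and 3.2e-35. In SwissProt all 3 matched the same protein, the trihydrophobin of the ergot fungus Claviceps fusiformis, which carries class II hydrophobin domains in 1 chain. The table lists the Pfam domain called fungal hydrophobin for both CL2509 contigs. For Unigene10417 it lists a PANTHER family with no name. These are names of nearest hits, and no function was tested.

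Unigene10417 had the highest level of any unigene in every library that held A. stygium. Its level was 12969 FPKM in A. stygium alone, 13132 FPKM after contact and 6631 FPKM in the dual library. The first 2 libraries were nearly level, and the dual library, which also contains T. fuciformis, stood lower. Its rank was 1 of the 18667 A. stygium unigenes in each of the 3 libraries, and also 1 of all 42507 unigenes of the table. The next unigene in order was at 5944 FPKM alone, 8426 FPKM after contact and 3929 FPKM in the dual library, so that Unigene10417 exceeded it 2.18-fold, 1.56-fold and 1.69-fold.

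The other hydrophobins were listed at far lower levels, below 6 FPKM in every library. CL2509.Contig1 had 5.96 FPKM alone, 4.37 FPKM after contact and 3.73 FPKM in the dual library. CL2509.Contig2 had 2.24, 1.83 and 0.78 FPKM in the same libraries. Their order was the same in all 3 libraries, alone highest and dual lowest, as deposited. The median A. stygium unigene had 5.92 FPKM alone, 5.62 FPKM after contact and 4.27 FPKM in the dual library, so that CL2509.Contig1 lay close to the middle of the transcriptome and CL2509.Contig2 below it. CL2509.Contig1 ranked 9300, 10209 and 9851 among A. stygium unigenes. CL2509.Contig2 ranked 13174, 13880 and 15267. Unigenes next to CL2509.Contig1 in this order had nearly the same level: in A. stygium alone CL2509.Contig1 shared its 5.96 FPKM with CL1472.Contig3, a component of the cell wall integrity response, and with the glycoside hydrolase CL3331.Contig3. After contact Unigene6660, just above CL2509.Contig1, had 4.38 FPKM.

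**Figure D1:**
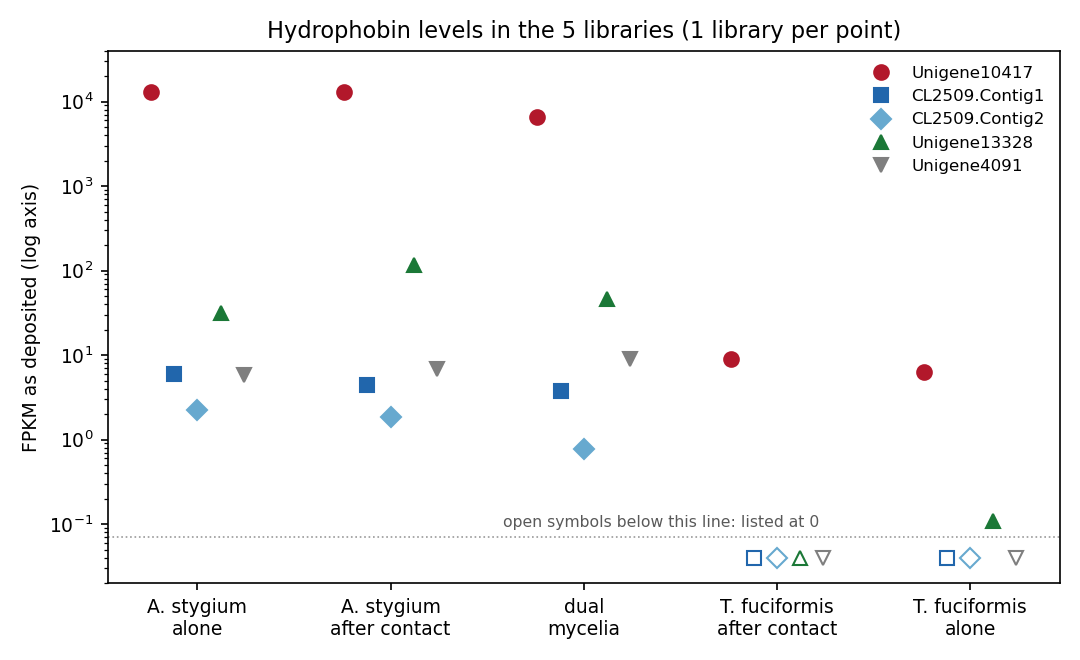
FPKM as deposited (log axis) of the 3 hydrophobins and of 2 further A. stygium unigenes with a hydrophobin-type SwissProt hit in each of the 5 libraries, with 1 point per unigene and library and open symbols for values listed at 0. Unigene10417 lies between 6631 and 13132 FPKM in the 3 libraries with A. stygium and below 10 FPKM in both T. fuciformis libraries.

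The share of the transcriptome given to hydrophobins was therefore that of 1 unigene. The 3 together made up 2.50% of the summed A. stygium FPKM alone, 2.43% after contact and 1.88% in the dual library, and Unigene10417 held at least 99.9% of each of these sums. FPKM is a measure per length, so these are not shares of reads. Nor are they strict shares of transcript molecules, since the 18667 unigenes summed fall into 12770 clusters, some with several contigs. As a share of the whole library they were 2.48%, 2.41% and 1.11%, the last in a library where A. stygium unigenes held 59.0% of the FPKM and T. fuciformis unigenes 36.4%. The 10 most abundant A. stygium unigenes held 8.49% of the fungus's FPKM alone, 8.94% after contact and 6.72% in the dual library. Unigene10417 alone accounted for 29.4%, 27.2% and 27.9% of what those 10 held.

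The other unigenes at the top were of mixed kinds. Of the 10 most abundant A. stygium unigenes, 6 were in the first 10 in all 3 libraries. Besides the hydrophobin they were the elongation factor 1 alpha Unigene8973, which delivers aminoacyl-tRNA to the ribosome, the peptidyl-prolyl isomerase CL5599.Contig2, which helps proteins fold, and Unigene5905, Unigene97 and CL3140.Contig4. Unigene5905 carries an Nr name of a zeta toxin family protein and a SwissProt hit to ribosomal protein L41. Unigene97 has a hypothetical protein as Nr hit and the flocculin FLO11, a yeast surface protein, as SwissProt hit. CL3140.Contig4 has no informative name. The Woronin body major protein CL2500.Contig3, which builds the organelle that plugs damaged septa in filamentous ascomycetes, was in the first 10 alone, with 2269 FPKM, and after contact, with 2010 FPKM. CL1972.Contig5, at 5559, 8426 and 1219 FPKM, has a ribosomal RNA region as its nucleotide database hit and is thus not a clear messenger RNA.

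**Figure D2:**
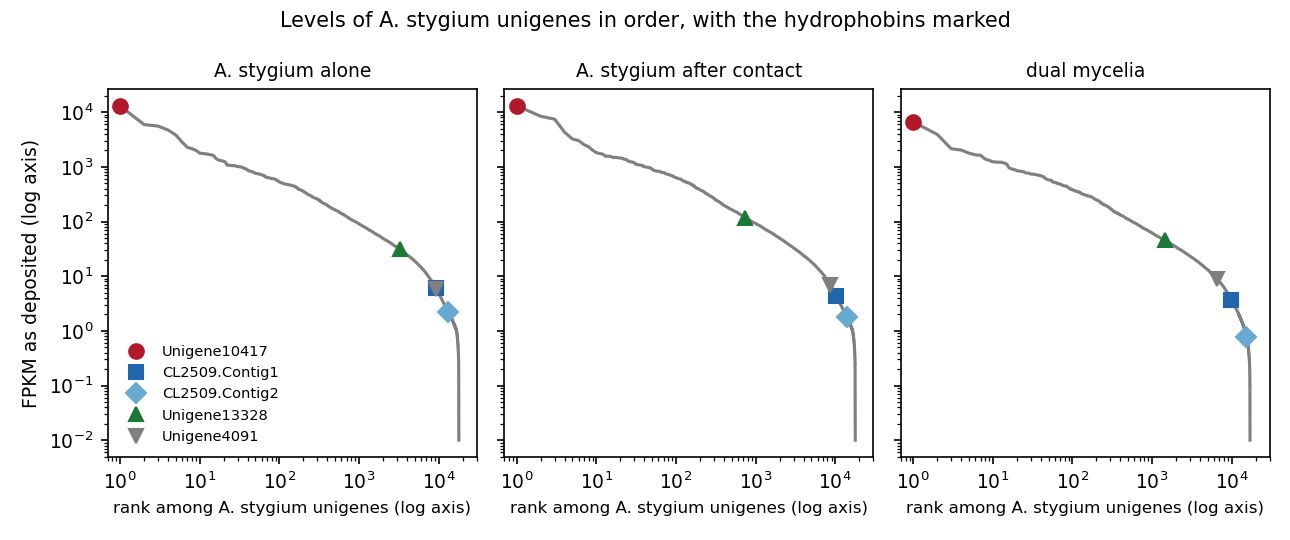
FPKM of A. stygium unigenes above 0 against their rank (both log axes) in A. stygium alone, A. stygium after contact and the dual library, with the hydrophobins marked. Unigene10417 is at rank 1 in each panel, while the CL2509 contigs lie where the curve bends down, at ranks 9300 to 15267.

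The comparison of A. stygium after contact with A. stygium alone asked whether hydrophobin transcripts differed once the fungus had met T. fuciformis. Values were first rescaled so that A. stygium unigenes summed to 1e+06 in each library, and the ratio was taken as log2 after adding 1 to both values, which understates changes at low levels. Unigene10417 had a log2 ratio of -0.04. CL2509.Contig1 had -0.46 and CL2509.Contig2 had -0.28, and with the contigs summed the cluster had 8.2 FPKM alone and 6.2 FPKM after contact, which gives -0.43. Of the 3 unigenes, 0 were at least 4-fold and 0 at least 2-fold apart between the libraries, where 5.98% and 21.2% of all A. stygium unigenes were. The median of all A. stygium unigenes was -0.13, and 56.8% of them had a lower ratio than Unigene10417. The sign of the Unigene10417 ratio depended on the scaling, since it was 0.02 with FPKM as deposited and 0.06 after scaling by the median ratio of abundant unigenes. The values show a transcript that was at nearly the same level in both libraries.

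In the dual library the level of Unigene10417 was 0.511 times that of A. stygium alone as deposited. After rescaling, which multiplies dual values by 1.47 relative to A. stygium alone, the log2 ratio was -0.42, or 0.750 times the level alone. For the deposited value, fewer A. stygium cells and less RNA per cell cannot be told apart in such a mixture. The rescaled ratio compares shares of A. stygium FPKM, so the total amount of A. stygium RNA does not enter it. CL2509.Contig1 had a log2 ratio of -0.11 and CL2509.Contig2 one of -0.73, against a median of all of -0.10. Again 0 of the 3 were 4-fold or 2-fold apart after rescaling, against 8.88% and 26.6% of all A. stygium unigenes. CL2509.Contig2 was close to that limit, with a log2 ratio of -0.94 at a pseudocount of 0.1. As deposited it had 0.348 times its level alone. Without rescaling the median of all A. stygium unigenes itself moved to -0.55. The Unigene10417 ratio was -0.97 without rescaling and -0.36 with scaling by the median ratio, so that its size rests on how the T. fuciformis share is removed, while all 3 scalings put it below 0.

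The dual library set against A. stygium after contact, which are both 1 week after contact, gave a log2 ratio of -0.37 for Unigene10417. The same ratio was -0.99 without rescaling. The 2 contigs of CL2509 had opposite signs here, 0.35 for Contig1 and -0.45 for Contig2, and the cluster sum had 0.14. Without rescaling Contig1 was also below 0, at -0.18. Past 4-fold or 2-fold after rescaling were 0 of the 3, against 6.19% and 22.1% of all A. stygium unigenes, whose median was 0.04. As deposited CL2509.Contig2 had 0.426 times its level after contact. The comparisons share libraries, so their ratios are not separate evidence.

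**Figure D3:**
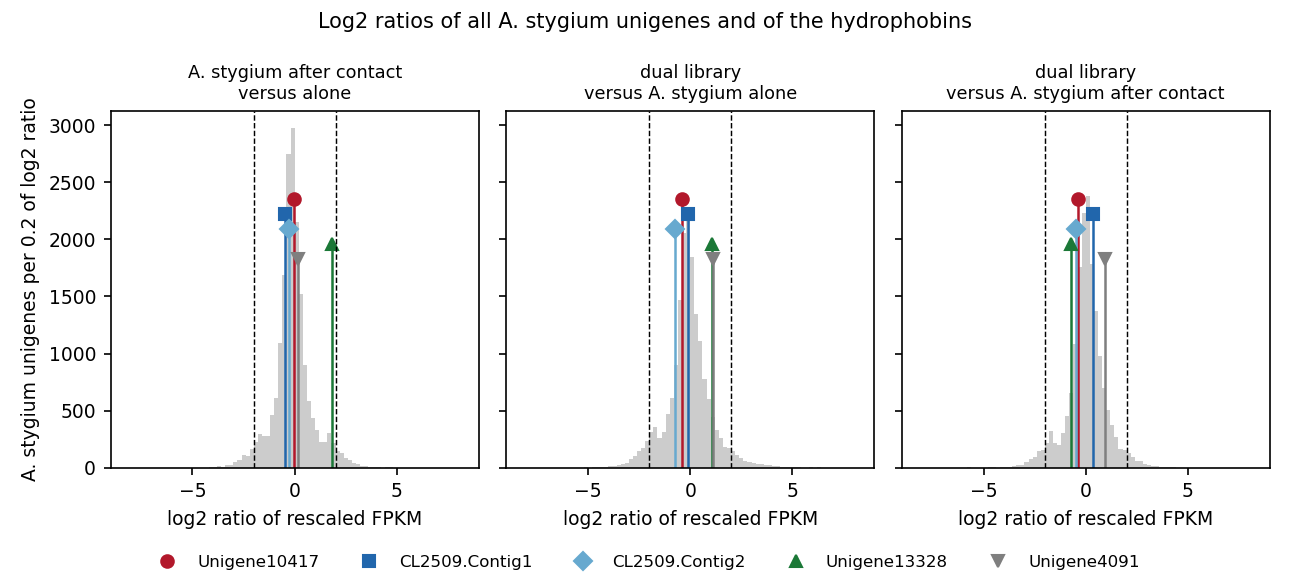
Number of A. stygium unigenes per 0.2 of log2 ratio of rescaled FPKM (grey) in the 3 comparisons, with coloured symbols at the ratios of the hydrophobins, whose heights carry no meaning, and dashed lines at 4-fold. The 3 hydrophobins lie within the bulk of each distribution, Unigene10417 at -0.04, -0.42 and -0.37.

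The ratio of Unigene10417 was also set beside those of the other most abundant transcripts. A. stygium alone had 31 unigenes of at least 1000 FPKM, the hydrophobin included. After contact their median log2 ratio was -0.05, with 30 of 31 within 2-fold. Of all A. stygium unigenes, 21.2% were at least 2-fold apart there. In the dual library against alone the median of the 31 was -0.31, with 23 of 31 below 0. At 2-fold, 6 of the 31 were lower and 3 higher, beside 14.8% and 11.9% of all A. stygium unigenes. The shares of all are over unigenes of all levels from 1 FPKM. A ratio lower than that of Unigene10417 was found for 38.7% of the 31. Abundant unigenes at the surface included the GPI-anchored wall organization protein ECM33 (CL5649.Contig3), with 1290 FPKM alone, 1185 FPKM after contact and 386 FPKM in the mixed mycelia. Its log2 ratio in dual against alone was -1.18. The FLO11-like Unigene97 had 4716, 3240 and 1237 FPKM and a ratio of -1.38 on the same scale. The SED1-like wall protein Unigene8814 had a ratio of -0.73, nearer to that of the hydrophobin. The manganese superoxide dismutase Unigene7339, a mitochondrial enzyme that removes superoxide, had 1075, 1496 and 1630 FPKM and a log2 ratio of 1.15. The elongation factor Unigene8973 had a ratio of -0.28, beside -0.42 for the hydrophobin.

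Reads of the 2 CL2509 contigs may be split between related sequences, and their similarity was not measured. Contig1 held 72.7% of the cluster sum alone, 70.5% after contact and 82.7% in the dual library. The sum was 8.2, 6.2 and 4.51 FPKM, and Unigene10417 exceeded it 1582-fold, 2118-fold and 1470-fold. Counted as 1 cluster among 12770, CL2509 ranked 7304, 7769 and 7833. Unigene10417 is a cluster of its own and ranked 1 among these too, where the next, CL1972 after contact, had 8777 FPKM.

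The T. fuciformis libraries held little hydrophobin signal. Unigene10417 had 6.36 FPKM in T. fuciformis alone and 8.98 FPKM after contact, while both CL2509 contigs were listed at 0 in both. The first values equal 0.0490% of the level in A. stygium alone and 0.0684% of the level in A. stygium after contact. A. stygium unigenes as a whole summed to 0.0662% and 0.0763% of their FPKM in the same pairs of libraries. For the 31 unigenes of at least 1000 FPKM alone this percentage ran from 0.0209% to 0.160%, with a median of 0.0547%. For the 42 after contact it ran from 0.0125% to 0.129%, with a median of 0.0616%. Unigene10417 lay inside these ranges, at the level that the other abundant A. stygium transcripts had in T. fuciformis libraries. The library labelled as T. fuciformis alone held this signal as well. Its source was not tested.

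**Figure D4:**
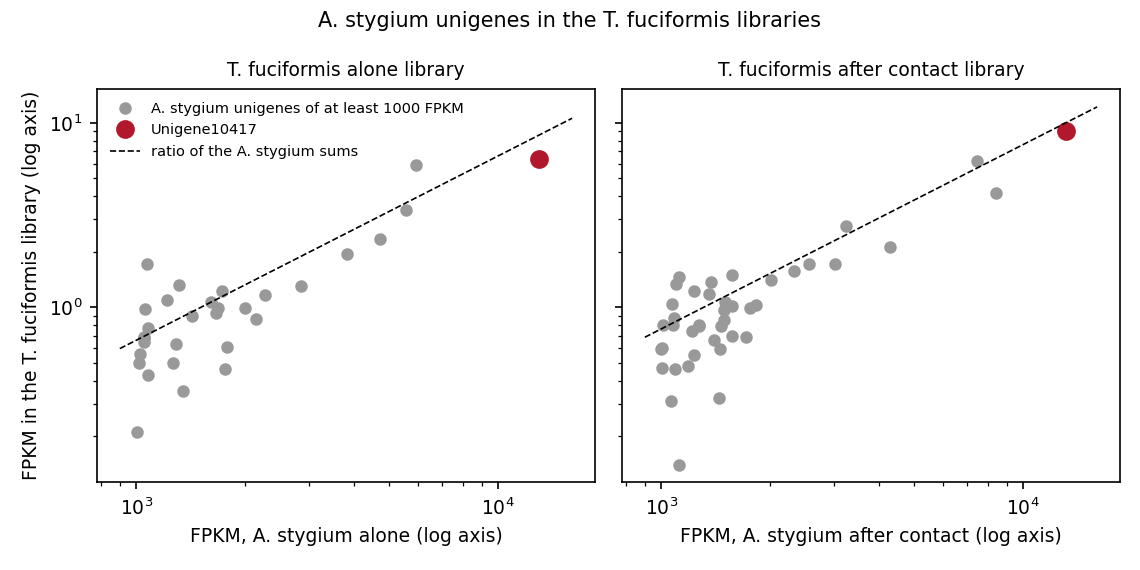
FPKM in each T. fuciformis library against FPKM in the matching A. stygium library (both log axes) for A. stygium unigenes of at least 1000 FPKM, with a dashed line at the ratio of the A. stygium sums, 0.0662% and 0.0763%. Unigene10417 lies below the line in both panels.

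No T. fuciformis unigene was named a hydrophobin in Nr. The search words hydrophobin, rodlet, cryparin and cerato-ulmin, applied to Nr and SwissProt names, found 3 T. fuciformis unigenes, all named cysteine-rich secreted proteins of Metarhizium in Nr and matching the trihydrophobin of Claviceps in SwissProt. They were CL5492.Contig2 with 25.1 FPKM alone, 22.5 FPKM after contact and 5.61 FPKM in the dual library, CL5492.Contig1 with 19.2, 14.4 and 3.77 FPKM, and Unigene3734 with 11.3, 8.89 and 2.19 FPKM. Their SwissProt e-values, from 1e-12 to 5.9e-11, were weaker than those of the A. stygium members, from 9e-20 to 1.8e-19. In the dual library Unigene10417 exceeded the most abundant T. fuciformis unigene, the conserved hypothetical protein CL4679.Contig2 at 4028 FPKM, 1.65-fold.

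The same words found 2 further A. stygium unigenes, both with class I proteins as SwissProt hits. Unigene13328 matched EAS, the rodlet hydrophobin of N. crassa spores, with an e-value of only 1.3e-07, and a hypothetical protein in Nr. It had 31.3 FPKM alone, 117 FPKM after contact and 45.6 FPKM in the dual library. Its rank among A. stygium unigenes was 3255 alone, 747 after contact and 1435 in the dual library. The log2 ratio was 1.83 after contact, where 9.89% of all A. stygium unigenes were at least 2-fold higher, and 1.08 in the dual library against alone, where 11.9% were. The second of these was 0.53 without rescaling. Against A. stygium after contact the dual library had a log2 ratio of -0.74, so the highest level was that after contact.

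Unigene4091 is named a putative rodlet peptide of Rosellinia necatrix and matched RodA with an e-value of 2.4e-25. It had 5.83 FPKM alone, 6.92 FPKM after contact and 9.04 FPKM in the dual library. Its log2 ratio was 0.17 after contact and 1.12 in the dual library against alone, and the latter was 0.56 without rescaling. Over all 5 A. stygium unigenes found by the words, 1 was at least 2-fold higher after contact, where 9.89% of all A. stygium unigenes were, and 2 were in the dual library against alone, where 11.9% were. Without rescaling, 0 of the 5 were 2-fold higher in the dual library. At least 2-fold lower were 0 in either comparison, beside 11.3% and 14.8% of all. Unigene10417 held 99.7%, 99.0% and 99.1% of the sum of the 5 in the 3 libraries.

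Genes of the route that secretes proteins such as hydrophobins and closes their disulfide bonds lay within 2-fold of their levels alone after rescaling. The search words for entry into the endoplasmic reticulum (signal peptidase, Sec61 to Sec63 and the signal recognition particle) took 18 unigenes. One of them, Unigene8985, shares only a domain name with Sec63 and matches the splicing factor Brr2. In both comparisons with A. stygium alone 0 of the 18 were 2-fold apart, beside 21.2% of all A. stygium unigenes after contact and 26.6% in the dual library. These shares are over unigenes of all levels from 1 FPKM, with a median of 5.92 FPKM alone. The members named here lay above that median, and no share at matched levels was taken. Their medians were -0.07 after contact and -0.13 in the dual library, beside -0.13 and -0.10 for all A. stygium unigenes. The Sec61 gamma subunit Unigene7718, part of the channel through which secreted proteins pass, had 219, 255 and 155 FPKM. Of the 8 unigenes of disulfide formation 0 were 2-fold apart in either comparison, beside the same 21.2% and 26.6%, with medians of -0.07 and -0.01. Scaled by the median ratio, the medians after contact of both lists turned to 0.03 and that of disulfide formation in the dual library to 0.04. Without rescaling the dual medians were -0.66 for entry and -0.55 for disulfide formation, near the -0.55 of all A. stygium unigenes. The protein disulfide isomerase Unigene9612, which forms and rearranges disulfide bonds, had 219, 216 and 110 FPKM, and the oxidoreductin CL925.Contig1, which supplies it with oxidizing power, had 14.5, 12.4 and 11.8 FPKM.

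Other surface and wall proteins were a large and mixed list of 255 unigenes in 189 clusters, many of them with weak SwissProt hits to repetitive yeast wall proteins. At 2-fold, 23 were higher and 12 lower after contact, which is 9.02% and 4.71% beside 9.89% and 11.3% of all. In the dual library against alone 30 of 250 were higher and 32 lower, 12.0% and 12.8% beside 11.9% and 14.8%. The medians of -0.14 and -0.08 were near those of all. The most abundant member was the SED1-like wall protein Unigene8814, with 1656 FPKM alone, 1489 FPKM after contact and 681 FPKM in the dual library, far below Unigene10417. Unigene10799, with a DAN4 hit at an e-value of only 5.5e-09, had 1.62, 30.6 and 9.15 FPKM. The largest ratio in the dual library was that of Unigene14404, listed at 0 alone and at 1.72 and 21.9 FPKM in the other libraries. It carries an Nr name of a cation channel, with an e-value of 8.2e-133, and a DAN4 hit at 1.3e-16.

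Hydrophobins often coat spores, so conidiation genes were listed too. The 35 unigenes found had medians of -0.49 after contact and -0.32 in the dual library, but 26 of them were polyketide synthases that match an enzyme of conidial pigment and say little of spore formation itself. The 35 fall into 15 assembly clusters, so contigs of 1 cluster are counted separately in the shares that follow. At 2-fold, 6 were higher and 10 lower after contact, which is 17.1% and 28.6% beside 9.89% and 11.3% of all. In the dual library 5 of 30 were higher and 5 lower, 16.7% each beside 11.9% and 14.8% of all. The conidiation-specific protein Unigene6661, the most abundant, had 837 FPKM alone, 606 FPKM after contact and 475 FPKM in the dual library. The contig CL2107.Contig2 of the developmental regulator StuA went from 12.96 to 2.87 FPKM after contact, while the most abundant contig of that cluster, CL2107.Contig1, had 141 and 101 FPKM. Of the other contigs of that cluster, CL2107.Contig3 had 15.1 and 13.0 FPKM and CL2107.Contig4 had 9.77 and 15.6 FPKM. The polyketide synthase CL3407.Contig1 had 14.4, 12.4 and 52.2 FPKM. Search words for enzymes that make melanin, a pigment of fungal walls, found 7 unigenes in 6 clusters, with medians of 0.54 and 0.38. The median in dual against alone was -0.15 without rescaling and -0.16 with only unigenes of at least 10 FPKM. After contact 3 of the 7 were at least 2-fold higher and 0 lower, which is 42.9% and 0% beside 9.89% and 11.3% of all. In the dual library against alone 1 was higher and 1 lower, 14.3% each beside 11.9% and 14.8%. In dual against after contact 0 of the 7 were higher and 2 lower, 0% and 28.6% beside 11.2% and 10.9% of all. Unigene12159, a tetrahydroxynaphthalene reductase in Nr but a versicolorin reductase in SwissProt, had 15.5, 81.0 and 22.9 FPKM. Unigene8857 had 37.1, 28.4 and 9.89 FPKM, the largest ratio of the list in dual against alone at -1.32. It is a short-chain dehydrogenase in Nr and matched trihydroxynaphthalene reductase in SwissProt at only 4.4e-18. The abundant Unigene10587, a 3-oxoacyl-acyl-carrier-protein reductase in Nr and a tetrahydroxynaphthalene reductase in SwissProt, had 120, 129 and 49.9 FPKM. A role of these reductases in melanin synthesis was not tested.

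The A. stygium unigenes whose pair of log2 ratios to A. stygium alone lay nearest to that of Unigene10417 were the vesicle coat protein Sec13 (Unigene2619, with 102, 104 and 52.2 FPKM), an alpha-mannosidase of glycoprotein processing (CL3136.Contig2), the ketodihydrosphingosine reductase TSC10 (Unigene9839), the ERP1 protein (Unigene10743) and a short chain dehydrogenase (Unigene870). Their distances ran from 0.00266 to 0.0106 on the log2 scale. Likeness was measured over 3 libraries only, and 149 of 6021 described unigenes of at least 10 FPKM lay within 0.1. For CL2509.Contig1 the nearest was the glycine-rich protein Unigene6780, at 0.0166, and 78 unigenes lay within 0.1. For CL2509.Contig2 it was the arsenite resistance protein CL7121.Contig2, at 0.0194, and 51 did. The CL2509 contigs, below 6 FPKM, rest on far fewer reads per base than Unigene10417.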

How the data were processed

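The authors deposited 1 table of FPKM values for 42507 de novo assembled unigenes in 5 libraries, with database hits per the file headers. Trizol RNA extraction and Illumina library preparation are stated per the labels' protocols. Assembler, aligner and counting software: not given in the sources used here. The table has 0 other per-library value columns, and no unigene lengths, read counts or sequences were at hand, so no sequence is shown.

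The table gives FPKM without read counts, so the depth of each library is unknown and no counting interval is given.

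Unigenes were assigned to a fungus at 1 FPKM and a 10-fold ratio over the other fungus, without use of the dual library. Ratios used the rescaled sums described in the results, a pseudocount of 1 and unigenes of at least 1 FPKM in either library. Ranks count unigenes with a higher value, plus 1. Lists are search words in Nr and SwissProt names. Named unigenes are the members, the 10 most abundant, the 5 nearest profiles and, per list, the most abundant and the largest ratio of at least 10 FPKM. CL5649.Contig3, CL2107.Contig1 and CL4679.Contig2 were chosen after their values were seen, as was the group of unigenes of at least 1000 FPKM. Names were taken from Nr, or from SwissProt at an e-value of at most 1e-20 where Nr was uninformative. With 1 library per group no test was made. The ratio script was run on values of A. stygium alone with known changes put into unigenes of at least 10 FPKM. No noise was added, so this checks the arithmetic only. Members and lists were chosen with earlier results of these data known. Alternatives changed the pseudocount, scaling, assignment, filter and contig summing. Python 3.11.15, pandas 2.3.3, numpy 2.4.6 and matplotlib 3.10.9 were used.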

Additional observations from a re-analysis of the deposited data

How the results depend on the processing

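The first rank of Unigene10417 in all 3 libraries with A. stygium was the same with contigs summed and over all unigenes, and the shares of the 3 hydrophobins moved by less than 1.5 times at a 100-fold assignment. For 61 of 63 alternative values of the members' ratios, the fold itself, before taking log2, stayed within 1.5 times of the reported one. The others were Unigene10417 in dual against after contact without rescaling (-0.99) and CL2509.Contig2 in the same comparison with contigs summed (0.14). Some of the 63 could hardly move. Contig summing leaves Unigene10417, a cluster of its own, unchanged, and at its level the pseudocount has little weight. Small log2 ratios changed sign in 4 of the 63: Unigene10417 after contact without rescaling and by the median ratio, and each CL2509 contig once in dual against after contact. The rank of CL2509.Contig2 became 7304, 7769 and 7833 with contigs summed. Over all unigenes of the table the dual ranks of the contigs became 18964 and 31961.

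The numbers of A. stygium unigenes past 4-fold depended on low values. After contact against alone 547 were higher and 569 lower. These counts became 1187 and 1252 with a pseudocount of 0.1, 109 and 33 with at least 10 FPKM, 223 and 159 without rescaling, where the pseudocount weighs more, and 286 and 293 clusters with contigs summed. In dual against alone 684 were higher and 874 lower. These became 273 and 125 with at least 10 FPKM, 249 and 467 without rescaling and 365 and 443 clusters, with 1607 lower at a pseudocount of 0.1. In dual against after contact 446 and 617 became 673 and 1268 with a pseudocount of 0.1, 142 and 82 with at least 10 FPKM, 87 and 307 without rescaling and 210 and 308 clusters. Increases were 42.0% of these calls. Without rescaling they were 22.1%, and the median log2 ratio of all A. stygium unigenes moved with them from 0.04 to -0.48. The cause of the surplus of decreases after rescaling was not tested.

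The list alternatives, chosen after the table was seen, left 47 of 48 medians within 1.5 times of the reported fold, again before taking log2. The median of the 5 unigenes found by hydrophobin words became 0.89 after contact with at least 10 FPKM, when only Unigene10417 and Unigene13328 remained. The share of FPKM weighted by length was not run, because the table used here gives no lengths. No paired analysis was possible because each group has 1 library.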
